A study of Mus musculus with 14 samples.

Results

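The matrix metalloproteinases (MMPs), the ADAMTS and ADAMTS-like genes, and the tissue inhibitors of metalloproteinases (TIMPs) were examined in mouse plexiform neurofibromas (PNs), benign tumors of peripheral nerve. Members were taken by symbol from the count table: *Mmp* followed by a number, *Adamts* followed by a number, *Adamtsl1* to *Adamtsl5*, and *Timp1* to *Timp4*. This gave 51 of 24062 genes, of which 23 encode MMPs, 19 encode ADAMTS proteases, 5 encode ADAMTS-like proteins, and 4 encode TIMPs. The rule uses names and no measured value, and the family was chosen with earlier results of these data known.

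MMPs are zinc proteases, most of them secreted as inactive proenzymes, that cleave collagens, basement membrane, and other matrix proteins. The membrane-type MMPs stay on the cell surface, where MMP14, with TIMP2 as an adaptor, can activate the proenzyme of MMP2. ADAMTS proteases act on proteoglycans, on procollagen, and on other secreted proteins, whereas ADAMTS-like proteins lack the protease domain and bind to matrix. TIMPs are small secreted proteins that block the active site of MMPs, and TIMP3 also blocks several ADAM and ADAMTS proteases. In nerve, these enzymes are known from remodeling after injury, when Schwann cells, fibroblasts, and macrophages produce them.

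Bulk RNA-seq was made from total RNA of frozen whole tissue. The 3 control libraries came from dorsal root ganglia (DRGs) with their nerves, taken from *Nf1* fl/fl littermates without Cre, and the 11 PN libraries came from *DhhCre*; *Nf1* fl/fl mice, all without drug treatment and on a mixed background of C57BL/6, I-129, and FVBN. By the study's methods the mice were 9 months old, MRI at 7 and 9 months gave the tumor growth, 5 PNs that changed by less than 5 mm3 over 2 months were called slow growing, and 6 PNs that gained more than 35 mm3 were called fast growing. Both groups carry the same deletion, so they differ by measured growth and not by genotype. *Dhh-Cre* removes *Nf1* from the Schwann cell lineage of the embryo, and the tumor also holds fibroblasts, immune cells, vessels, and neurons that keep the gene. The age is given as 7 months in another place, so it is known only to within that range. The labels give neither sex nor batch for a library and do not name shared animals. Each p-value below therefore judges a group difference against the spread between these libraries only.

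Between 9596773 and 17594164 reads were counted on genes per library. Levels are given as CPM, counts scaled to library size, after TMM scaling, a correction for library composition, and 3 counts correspond to 0.167 to 0.313 CPM, a floor that covers counting error only. The members held 0.152% to 0.507% of the counts of a library. Several libraries stood apart in the markers of other tissue: the summed level of 12 skeletal muscle markers was 3527 to 14456 CPM in controls and 30.2 to 3476 CPM in PNs, 11 fat markers reached 3748 to 4694 CPM in controls and 43.7 to 2317 CPM in PNs, and 8 neutrophil markers reached 1673 CPM in control DRG5 against 19.5 to 245 CPM in all other libraries. The 10 sensory neuron markers that should mark a ganglion summed to 24.6 CPM in fast-growing PN 1191 and to 12272 CPM in slow-growing PN 1203, and to between 1472 and 7497 CPM elsewhere. The 7 endothelial and mural markers summed to 812 to 910 CPM in controls and to 178 to 420 CPM in fast-growing PNs. Slow-growing PNs lay between 189 and 1158 CPM of them, with the highest sum in PN 1206. The 8 Schwann cell markers were present in every library (4375 to 21192 CPM). In such tissue, fewer cells of a type and less RNA per cell cannot be told apart.

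Of the 51 members, 42 had a count in all 14 libraries, 6 had a count in some, and *Mmp1a*, *Mmp1b*, and *Mmp20* had none, which leaves each of them below the floor in every library. These 3 genes lie in a cluster of 10 *Mmp* genes on chromosome 9 of mm10 (7272514 to 7699585), with *Mmp13*, *Mmp12*, *Mmp3*, *Mmp10*, *Mmp8*, *Mmp27*, and *Mmp7*. The cluster's genes also made up 5 of the 6 members that were counted in only some libraries (*Mmp3*, *Mmp7*, *Mmp10*, *Mmp12*, and *Mmp27*), the remaining one being *Adamts18*. The genes of *Mmp2* (chromosome 8, 92827291 to 92853420), *Mmp14* (chromosome 14, 54431612 to 54445364), *Mmp17* (chromosome 5, 129584169 to 129611099), and *Timp1* (chromosome X, 20870166 to 20874735), by contrast, lie apart and were counted in all 14 libraries.

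The 250 bases before the start site are shown for a pair of cluster genes that were lower in PNs, *Mmp13* and *Mmp3*. They are also shown for 2 of the 3 members that were higher in fast-growing than in slow-growing PNs, *Mmp14* and *Timp1*. The third, *Mmp2*, had no window in the set used. The sequences are RefSeq's, of build GRCm38.p6, all on the plus strand, at chr9:7272264-7272513, chr9:7445572-7445821, chr14:54431348-54431597, and chrX:20869916-20870165 in that order. Capitals mark 3 motifs searched on both strands. The first is the AP-1 motif, TGANTCA, which reads alike on both strands. The second is the TATA box, whose letters are TATAAA. The third is the GC box, whose letters are GGGCGG, and none of the matches shown overlap, though the pair of GC boxes in *Mmp14* adjoin.
Mmp13: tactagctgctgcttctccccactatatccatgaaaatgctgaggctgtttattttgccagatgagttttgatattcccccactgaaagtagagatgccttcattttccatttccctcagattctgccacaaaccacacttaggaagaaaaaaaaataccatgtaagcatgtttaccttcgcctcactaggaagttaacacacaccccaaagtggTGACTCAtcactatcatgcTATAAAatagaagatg
Mmp3: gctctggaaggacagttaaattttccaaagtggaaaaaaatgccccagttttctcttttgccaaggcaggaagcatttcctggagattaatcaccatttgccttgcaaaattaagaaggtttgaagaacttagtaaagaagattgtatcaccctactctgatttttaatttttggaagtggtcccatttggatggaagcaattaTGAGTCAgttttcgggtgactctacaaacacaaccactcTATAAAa
Mmp14: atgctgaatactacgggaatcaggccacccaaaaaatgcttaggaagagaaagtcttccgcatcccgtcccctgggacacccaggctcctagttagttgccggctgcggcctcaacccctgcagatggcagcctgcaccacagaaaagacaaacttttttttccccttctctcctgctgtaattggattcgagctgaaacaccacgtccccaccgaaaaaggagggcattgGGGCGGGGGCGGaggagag
Timp1: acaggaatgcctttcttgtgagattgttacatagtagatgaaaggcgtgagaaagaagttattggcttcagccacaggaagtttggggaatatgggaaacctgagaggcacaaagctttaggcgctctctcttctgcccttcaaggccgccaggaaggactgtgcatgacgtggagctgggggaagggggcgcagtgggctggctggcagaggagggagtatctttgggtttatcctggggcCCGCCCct

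*Mmp13* and *Mmp3* share the same layout, an AP-1 match that begins 35 and 46 bases before the start and a TATA box that begins 16 and 7 bases before it. *Mmp14* has 2 GC boxes, beginning 19 and 13 bases before the start, and *Timp1* has 1 on the opposite strand, 8 bases before the start, and neither holds the other motifs in this window. GC content was 40.4% and 37.6% for *Mmp13* and *Mmp3*, and 55.2% and 54.4% for *Mmp14* and *Timp1*. Among 32841 mouse windows of the same length, 6.75% held the AP-1 letters, 12.4% the TATA box, and 32.7% the GC box. Of the 36 members with a window, 8 held the AP-1 letters (22.2%), and all 8 belong to the 10 genes of the chromosome 9 cluster. The TATA box was found for 10 members (27.8%) and the GC box for 20 (55.6%). These matches describe letters and not binding.

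To compare levels between genes, CPM were divided by the length of a gene's exons in kilobases. TIMP transcripts were the most abundant class on this scale, and their summed level was 199 ± 76.0 CPM per kb (SD) over the 3 controls, 397 ± 74.9 over the 5 slow-growing PNs, and 487 ± 40.5 over the 6 fast-growing PNs. *Timp2* and *Timp3* together supplied nearly all of it, with *Timp2* at 52.4%, 51.5%, and 47.4% of the TIMP sum in the 3 groups. The MMP sum was 69.8 ± 18.8, 67.0 ± 16.5, and 182 ± 42.5 CPM per kb in the same order, so that it was alike in controls and slow-growing PNs and higher in fast-growing PNs, whose lowest library (117 CPM per kb) lay above the highest of the others (86.9). *Mmp2* supplied 35.6%, 41.4%, and 62.4% of the MMP sum. The ADAMTS sum was 43.8 ± 10.3, 53.4 ± 13.5, and 71.0 ± 20.7 CPM per kb, led by *Adamts1* in controls and fast-growing PNs (30.8% and 27.7%) and by *Adamts5* in slow-growing PNs (23.3% against 20.2%), and the ADAMTS-like sum was 21.2 ± 8.04, 27.5 ± 11.6, and 28.9 ± 5.95, led by *Adamtsl5*. *Timp2*, *Timp3*, and *Mmp2* were the 3 most abundant members per length in each group. *Timp1* was at 44.1 CPM per kb in fast-growing PNs, next after these, but at 3.23 in controls and 7.03 in slow-growing PNs, below *Adamts1* (13.7 and 11.5) and *Adamtsl5* (10.4 and 13.97). These sums are descriptions and were not tested.

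All 11 PNs together were first set against the 3 controls, and the slow- and fast-growing PNs were then each set against the same controls. In all PNs, 11 members were higher and 2 were lower among 45 tested, so that 28.9% of those tested had changed. A gene is called changed here where the quasi-likelihood test of edgeR gave, after Benjamini-Hochberg adjustment, a p below 0.05. Over all genes tested in that comparison, 26.3% had changed, 12.9% higher and 13.4% lower, so that the share of changed members was near the background while their split leaned to the higher side. The median log2 fold change was 0.50 for the tested members and 0.10 for all genes. The members that rose were *Mmp15*, *Mmp16*, *Mmp17*, *Adamts2*, *Adamts7*, *Adamts13*, *Adamts17*, *Adamts19*, *Adamts20*, *Timp2*, and *Timp3*, and those that fell were *Mmp3* and *Mmp13*.

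More members passed in fast-growing than in slow-growing PNs. In fast-growing PNs, 16 members were higher and 2 were lower among 45 tested (edgeR, 40.0% of the members tested), against 31.4% of all genes, 14.8% higher and 16.7% lower. *Mmp2*, *Mmp14*, *Mmp19*, *Mmp28*, *Adamtsl1*, and *Timp1* passed the test in this comparison and not in that of all PNs, and so did *Timp4* on the lower side. In slow-growing PNs, 1 member was higher and 3 were lower among 42 tested (9.52%), against 11.3% of all genes, 4.12% higher and 7.13% lower. The median log2 fold change of the tested members was 0.49 in fast-growing PNs, where that of all genes was 0.02, and 0.37 in slow-growing PNs, where that of all genes was 0.04. These 3 comparisons share their controls and are not independent of each other. Whether slow- and fast-growing PNs differ is answered only by their direct comparison, given further on.

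The number of calls moved with single libraries. Without DRG4 or without DRG5, 4 members passed the threshold in all PNs in place of 13 and 13 members in fast-growing PNs in place of 18, and without DRG5, PN 1079, PN 1198A, PN 1202, or PN 1206, 1 member passed in slow-growing PNs in place of 4. Calls over all genes fell as well in these fits, to 14.9% without DRG4 and 12.5% without DRG5 in all PNs, to 22% and 20.4% in fast-growing PNs, and to between 3.74% and 9.57% in slow-growing PNs. The muscle and fat scores are the mean log2 level of each marker list. With them as covariates in the edgeR fit, 0 members passed against controls. Of all genes 3.29%, 0%, and 0% passed in all, slow-growing, and fast-growing PNs. At an unadjusted p under 0.05 there were 3, 0, and 4 members in the same order. Here and below, such unadjusted counts come without the share of all genes at that p and cannot be set against adjusted shares. By DESeq2 without covariates 18, 9, and 18 members passed, which is 40%, 21.4%, and 40% of those tested against 31.8%, 22.5%, and 36.6% of all genes. Muscle and fat markers separate controls from PNs themselves, so the part of such tissue in a difference from control cannot be told apart from the tumor by these libraries.

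**Figure D1:**
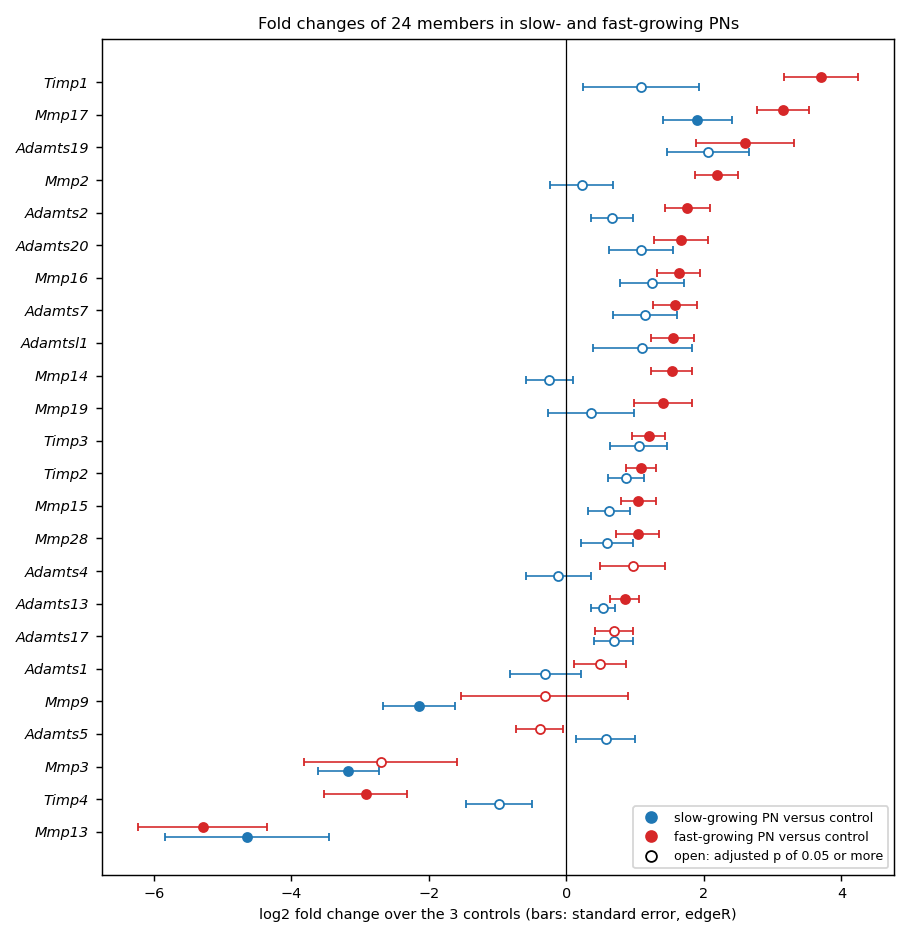
Log2 fold change over the 3 controls (x axis) for the 24 named members in slow-growing (blue) and fast-growing PNs (red), with standard errors from edgeR as bars and open symbols where the adjusted p was 0.05 or more. *Timp1*, *Mmp2*, and *Mmp14* are far from 0 in fast-growing PNs (3.71, 2.18, and 1.53) and much nearer to it in slow-growing PNs (1.08, 0.22, and -0.25), whereas *Mmp17* and *Mmp13* are far from 0 in both.

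Among the TIMPs, *Timp1*, *Timp2*, and *Timp3* rose and *Timp4* fell in fast-growing PNs, so all 4 members of this class passed the test there, where 31.4% of all genes did. *Timp2*, the adaptor through which membrane-type MMPs bind proMMP2, was at 588, 363, and 271 CPM in the controls. It was at 713, 803, 743, 825, and 779 CPM in slow-growing PNs and between 818 and 945 CPM (median 903) in fast-growing PNs. Every PN was above every control, and the spread among the 11 PNs was small beside that among the 3 controls. *Timp2* rose 2.04-fold in all PNs (log2 fold change 1.03, standard error 0.20, edgeR Benjamini-Hochberg adjusted p = 0.00185) and 2.11-fold in fast-growing PNs (log2 1.08, standard error 0.22, edgeR adjusted p = 0.00492), and the difference of 0.87 in slow-growing PNs did not pass (standard error 0.26, edgeR adjusted p = 0.0666). That difference passed without DRG3 (edgeR adjusted p = 0.0142), with all 14 libraries in 1 fit (edgeR adjusted p = 0.0078), with DESeq2 (adjusted p = 0.00307), and with limma voom (adjusted p = 0.0388). The call for all PNs and that for fast-growing PNs held with each library left out in turn.

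*Timp3*, the inhibitor bound to the matrix, was at 1063, 548, and 563 CPM in controls and at 1625, 2195, 1363, 699, and 1893 CPM in slow-growing PNs. In fast-growing PNs it lay between 1479 and 2082 CPM with a median of 1704. All PNs but the neuron-rich slow-growing PN 1203 lay above the controls. The log2 fold change was 1.17 in all PNs (standard error 0.30, edgeR adjusted p = 0.0118) and 1.199 in fast-growing PNs (standard error 0.24, edgeR adjusted p = 0.00481), and it was 1.05 in slow-growing PNs, which did not pass but did so without PN 1203 (standard error 0.42, edgeR adjusted p = 0.132, and 0.0362 without that library). It also passed there with the fibroblast covariate (edgeR adjusted p = 0.0186), with all 14 libraries in 1 fit (0.034), and with DESeq2 (adjusted p = 0.0392). For all PNs, *Timp3* lost the call without DRG4 (edgeR adjusted p = 0.0778) and without DRG5 (0.0822). On the opposite strand, exons of *Syn3* cover 21.3% of the exon length of *Timp3*, and a strand setting for the counting is not given in the sources used here.

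*Timp1*, the inducible inhibitor of the family, was low in controls, at 2.49, 1.01, and 5.11 CPM. It was at 3.34, 18.8, 2.86, 2.20, and 4.05 CPM in slow-growing PNs, of which PN 1198A alone stood out, and between 26.8 and 60.0 CPM (median 34.0) in fast-growing PNs. The fast-growing PNs were thus above every other library, and 4 of the 5 slow-growing PNs lay within the range of the controls. *Timp1* rose 13.1-fold in fast-growing PNs over controls (log2 3.71, standard error 0.54, edgeR adjusted p = 0.000875), a call that held with each library left out, the log2 fold change without DRG5 being 4.46. The rise was 6.84-fold with muscle and fat scores as covariates (edgeR adjusted p = 0.770) and 21.9-fold with length and GC trends removed (edgeR adjusted p = 0.000417). The log2 fold change in slow-growing PNs was 1.08 (standard error 0.84, edgeR adjusted p = 0.396) and fell to 0.07 without PN 1198A (edgeR adjusted p = 0.934). In all PNs it was 3.07 and did not pass (standard error 1.12, edgeR adjusted p = 0.0562), though it passed without PN 1079, 1202, 1203, or 1206 (edgeR adjusted p from 0.0317 to 0.0444), with all 14 libraries in 1 fit (0.0183), and with DESeq2 (adjusted p = 0.00323).

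*Timp4*, which is otherwise known from heart and fat, went the other way. Its level was 10.4, 12.9, and 13.3 CPM in controls, 2.89, 7.59, 10.2, 2.47, and 9.16 CPM in slow-growing PNs, and 0.146 to 3.21 CPM (median 1.43) in fast-growing PNs. Every PN lay below every control. *Timp4* fell by 2.92 on the log2 scale in fast-growing PNs (standard error 0.60, edgeR adjusted p = 0.00544), and log2 fold changes of -0.98 in slow-growing PNs (edgeR adjusted p = 0.201) and -1.68 in all PNs (edgeR adjusted p = 0.0922) did not pass, though the latter passed without PN 1202 (edgeR adjusted p = 0.0462), with all 14 libraries in 1 fit (0.0159), with the macrophage marker score as a covariate (0.025), and with limma voom (-2.41, adjusted p = 0.0129). The summed fat markers had the same order of groups, 3748 to 4694 CPM in controls, 44.6 to 2317 CPM in slow-growing PNs, and 43.7 to 229.7 CPM in fast-growing PNs. With muscle and fat scores as covariates, the sign of the *Timp4* log2 fold change in fast-growing PNs turned to 2.61 (standard error 1.81, edgeR adjusted p = 0.813). In that fit 0 of all genes passed, and the markers of both tissues separate controls from PNs themselves. The part of fat tissue in the level of *Timp4* was not tested.

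**Figure D2:**
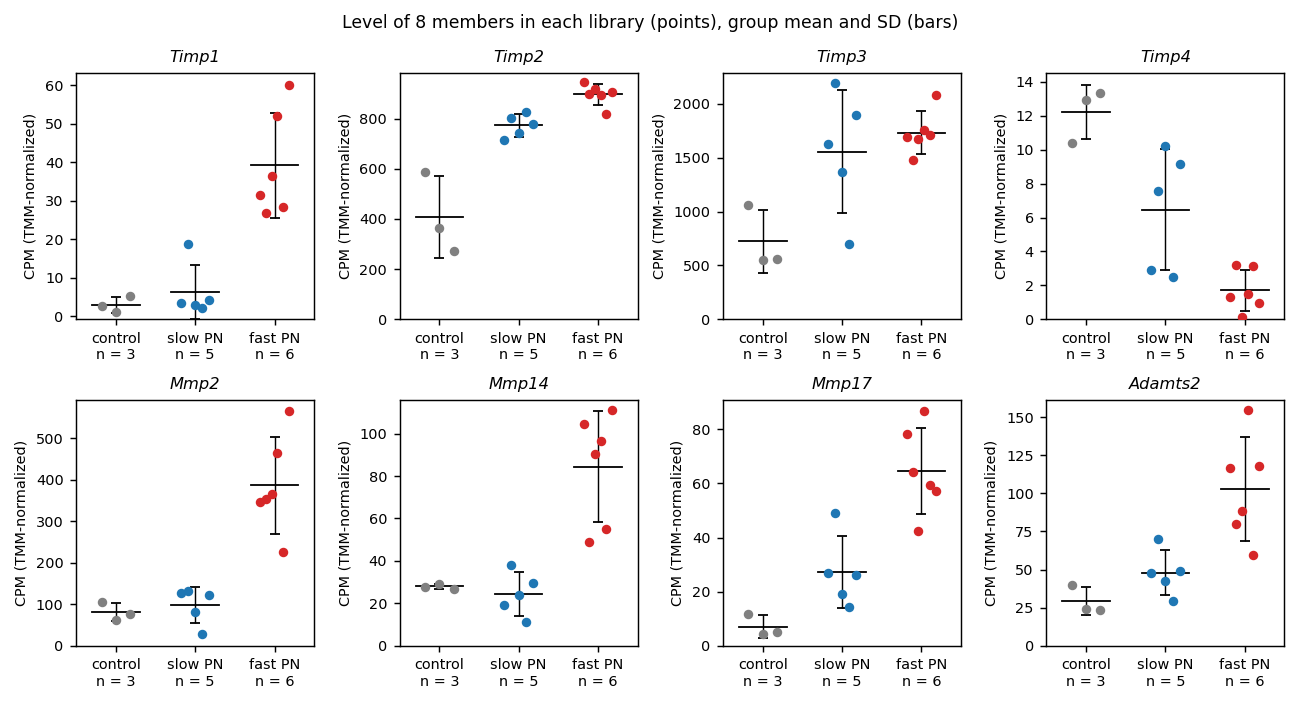
TMM-normalized level (y axis, CPM) of *Timp1* to *Timp4*, *Mmp2*, *Mmp14*, *Mmp17*, and *Adamts2* in each control, slow-growing PN, and fast-growing PN library (points), with the group mean (line) and SD (bars). For *Timp1*, *Mmp2*, and *Mmp14* the 6 fast-growing PNs lie above all 8 other libraries, and *Timp4* is lower in every PN than in every control.

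The gelatinases MMP2 and MMP9 cleave denatured collagen and collagen IV of basement membrane. *Mmp2* was at 106, 62.7, and 76.3 CPM in controls and at 128, 132, 80.3, 28.5, and 123 CPM in slow-growing PNs, which overlapped. In fast-growing PNs it lay between 225 and 567 CPM, with a median of 360.4, above every library of the other groups. Its rise over controls in fast-growing PNs was 4.55-fold (log2 2.18, standard error 0.32, edgeR adjusted p = 0.000851) and held with each library left out, and with muscle and fat scores as covariates it was 1.98-fold (edgeR adjusted p = 0.888). The log2 fold change was 0.22 in slow-growing PNs (standard error 0.46, edgeR adjusted p = 0.756), and in all PNs it was 1.63 and, of the fits with 1 library left out, passed only without PN 1203 (standard error 0.72, edgeR adjusted p = 0.107, and 0.0359 without that library). It also passed there with all 14 libraries in 1 fit (edgeR adjusted p = 0.0315) and with DESeq2 (adjusted p = 0.0404).

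*Mmp9*, a gelatinase that neutrophils and osteoclasts make in large amounts, followed single libraries. It was at 10.8, 6.69, and 38.3 CPM in controls and at 4.48, 5.64, 5.21, 3.11, and 3.37 CPM in slow-growing PNs. Among the fast-growing PNs it was at 72.5 CPM in PN 1179, at 10.4 CPM in PN 1191, and between 1.48 and 4.44 CPM in the other 4. All slow-growing PNs were below all controls, and *Mmp9* fell by 2.14 on the log2 scale there (standard error 0.52, edgeR adjusted p = 0.0341). That call was lost without DRG5, where the log2 fold change was -1.05 (edgeR adjusted p = 0.162). It was lost too without any of the 5 slow-growing PNs in turn (edgeR adjusted p from 0.0511 to 0.0798). The same held with all 14 libraries in 1 fit (edgeR adjusted p = 0.171) and with limma voom (adjusted p = 0.0916). Removing length and GC trends (-1.96, edgeR adjusted p = 0.0551) or adding the macrophage covariate (-1.65, 0.203) also ended the call. The log2 fold change of -0.31 in fast-growing PNs had a standard error of 1.21 and did not pass (edgeR adjusted p = 0.872), nor did that of -0.83 in all PNs (standard error 0.998, edgeR adjusted p = 0.571). Without PN 1179, *Mmp9* passed in all PNs (log2 fold change -2.10, edgeR adjusted p = 0.00777), as it did by DESeq2 with every library (-2.13, adjusted p = 0.000624), and without DRG5 its sign turned in all PNs (0.26) and in fast-growing PNs (0.83).

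The 2 libraries with the highest *Mmp9* also had the highest sums of 5 osteoclast markers, 117 CPM in PN 1179 and 108 CPM in DRG5 against 6.41 to 60.02 CPM in the others. *Mmp8*, a neutrophil collagenase that no comparison called and that is named after its values were seen, was highest in the same 2 libraries, at 27.3 CPM in DRG5 and 13.8 CPM in PN 1179. The sum of the 8 neutrophil markers was highest in them too, at 1673 and 245 CPM. The part of these cells in the levels of *Mmp8* and *Mmp9* was not tested.

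*Mmp13*, the main interstitial collagenase of mice and known from bone and cartilage, was at 9.78, 1.01, and 46.5 CPM in controls. It was at 0.0759, 0.0752, 1.53, 0.733, and 1.64 CPM in slow-growing PNs and between 0.137 and 1.17 CPM (median 0.461) in fast-growing PNs. The control DRG4 overlapped with the PNs, and the other controls lay above all of them. *Mmp13* fell by 4.92 on the log2 scale in all PNs (standard error 0.77, edgeR adjusted p = 0.000414), and its log2 fold change was -4.64 in slow-growing PNs (standard error 1.19, edgeR adjusted p = 0.0411) and -5.29 in fast-growing PNs (standard error 0.94, edgeR adjusted p = 0.00255). For all and for fast-growing PNs the call held with each library left out, but without DRG5 the log2 fold changes were -3.08 and -3.39 (edgeR adjusted p = 0.0238 and 0.0179), and limma voom did not call fast-growing PNs (-4.08, adjusted p = 0.0811). In slow-growing PNs it was lost without DRG5, where the log2 fold change was -2.79 (edgeR adjusted p = 0.248). It was lost too without each of the 5 slow-growing PNs in turn (edgeR adjusted p from 0.0605 to 0.0834), and with limma voom (adjusted p = 0.165). The same held with length and GC trends removed (-4.56, edgeR adjusted p = 0.052), the fibroblast covariate (-4.59, 0.0556), and the macrophage covariate (-4.71, 0.176). DRG5 also had the highest sum of 6 bone markers, 60.0 CPM against 9.68 to 37.9 CPM in the other libraries, and their part was not tested.

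*Mmp3*, the stromelysin that cleaves proteoglycans and activates other proMMPs, was at 3.26, 7.42, and 5.94 CPM in controls. It lay at 1.06, 0.601, 0.409, 0.366, and 0.675 CPM in slow-growing PNs and between 0 and 3.07 CPM (median 0.205) in fast-growing PNs, where PN 1179 held the highest value. All 11 PNs were below all controls. *Mmp3* fell by 3.18 on the log2 scale in slow-growing PNs (standard error 0.44, edgeR adjusted p = 0.00405), a call that held with each library left out and was lost with all 14 libraries in 1 fit (-3.14, edgeR adjusted p = 0.0512), and its log2 fold change was -2.85 in all PNs (standard error 0.82, edgeR adjusted p = 0.020), a call that was lost without DRG4 (edgeR adjusted p = 0.096) and without DRG5 (0.0765). In fast-growing PNs the log2 fold change of -2.70 did not pass (standard error 1.11, edgeR adjusted p = 0.0955), and without PN 1179 it was -3.63 and passed (edgeR adjusted p = 0.0356). It also passed there with the macrophage marker score as a covariate (-4.03, edgeR adjusted p = 0.0169) and with limma voom (-4.34, adjusted p = 0.0103). Of the other members of its role, *Mmp11* and *Mmp12* were tested in all PNs and did not pass, and *Mmp7* and *Mmp10* had counts too low for the filter.

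**Figure D3:**
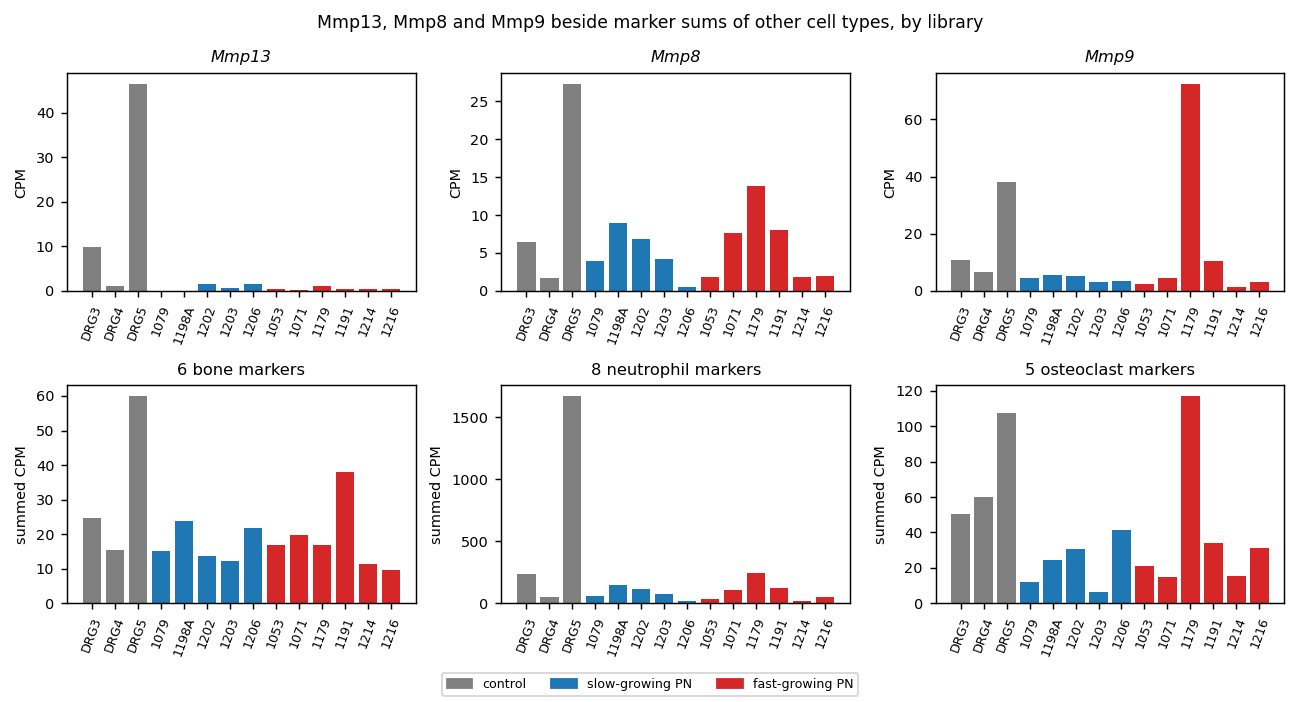
Level of *Mmp13*, *Mmp8*, and *Mmp9* (upper row, y axis in CPM) and summed CPM of bone, neutrophil, and osteoclast markers (lower row) in each library (bars, colored by group). Control DRG5 is highest in *Mmp13*, *Mmp8*, bone markers, and neutrophil markers, and fast-growing PN 1179 is highest in *Mmp9* and osteoclast markers.

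Of the 6 membrane-type MMPs, 3 rose in all PNs, 4 in fast-growing PNs, and 1 in slow-growing PNs, against 12.9%, 14.8%, and 4.12% of all genes, and edgeR called none lower, nor was any lower at an unadjusted p under 0.05. *Mmp17*, a membrane-type MMP attached to the surface by a glycolipid anchor, was at 11.8, 4.21, and 4.90 CPM in controls. It was at 27.0, 49.0, 19.1, 14.2, and 26.2 CPM in slow-growing PNs and between 42.3 and 86.8 CPM (median 61.9) in fast-growing PNs. Every PN was above every control, and 5 of the 6 fast-growing PNs were above every slow-growing PN. The rise was 6.73-fold in all PNs (log2 2.75, standard error 0.60, edgeR adjusted p = 0.00396), 3.75-fold in slow-growing PNs (log2 1.91, standard error 0.50, edgeR adjusted p = 0.0441), and 8.88-fold in fast-growing PNs (log2 3.15, standard error 0.38, edgeR adjusted p = 0.000314). The calls for all and for fast-growing PNs held with each library left out, and *Mmp17* was the only member that rose in slow-growing PNs by this test. That call for slow-growing PNs was lost without DRG4 (edgeR adjusted p = 0.168), without DRG5 (0.185), and without PN 1079, 1198A, 1202, or 1206 (0.0576 to 0.0768). It was also lost with the macrophage covariate (log2 1.96, edgeR adjusted p = 0.0865), and limma voom did not make it (adjusted p = 0.0562). Without DRG3 the rise was 10.3-fold in all, 5.69-fold in slow-growing, and 13.3-fold in fast-growing PNs. With muscle and fat scores as covariates it was 2.57-fold in all PNs (edgeR adjusted p = 0.355) and 18.7-fold in fast-growing PNs (edgeR adjusted p = 0.442).

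*Mmp14*, which encodes the main cell-surface activator of proMMP2 and a collagenase, was at 27.8, 29.2, and 26.8 CPM in controls and at 19.1, 38.2, 23.9, 11.4, and 29.8 CPM in slow-growing PNs. Fast-growing PNs lay between 48.7 and 111 CPM, with a median of 93.6, and none overlapped with another group. *Mmp14* rose 2.89-fold over controls in fast-growing PNs (log2 1.53, standard error 0.30, edgeR adjusted p = 0.00406), which held with each library left out. The log2 fold change was -0.25 in slow-growing PNs (standard error 0.35, edgeR adjusted p = 0.642) and 1.02 in all PNs (standard error 0.61, edgeR adjusted p = 0.237). With muscle and fat scores as covariates the value in fast-growing PNs was -0.15 (standard error 0.92, edgeR adjusted p = 0.983).

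*Mmp15* and *Mmp16*, membrane-type MMPs with a transmembrane segment, rose in all and in fast-growing PNs. *Mmp15* was at 51.8, 26.6, and 21.4 CPM in controls, 39.5 to 69.6 CPM in slow-growing PNs, and 56.9 to 86.2 CPM in fast-growing PNs (log2 1.05 in the latter, standard error 0.26, edgeR adjusted p = 0.0132; 0.91 in all PNs, standard error 0.27, edgeR adjusted p = 0.0235). Both calls of *Mmp15* were lost without DRG4 (edgeR adjusted p = 0.0639 in fast-growing and 0.129 in all PNs) and without DRG5 (0.0549 and 0.156). *Mmp16* was at 5.75, 2.47, and 4.79 CPM in controls, 5.85 to 21.1 CPM in slow-growing PNs, and 10.3 to 20.4 CPM in fast-growing PNs, so that every PN was above every control. Its log2 fold change was 1.64 in fast-growing PNs (standard error 0.31, edgeR adjusted p = 0.00371) and 1.52 in all PNs (standard error 0.39, edgeR adjusted p = 0.0113), the second of which was lost without DRG4 (edgeR adjusted p = 0.0733). In slow-growing PNs *Mmp15* (log2 0.62, standard error 0.31, edgeR adjusted p = 0.210) and *Mmp16* (log2 1.24, standard error 0.46, edgeR adjusted p = 0.117) did not pass. *Mmp15* passed there without DRG3 (edgeR adjusted p = 0.0346). *Mmp16* passed there with all 14 libraries in 1 fit (edgeR adjusted p = 0.0392) and with DESeq2 (adjusted p = 0.0435).

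*Mmp24* and *Mmp25*, the remaining membrane-type MMPs, did not pass in any comparison and are named after their values were seen. *Mmp24*, known from neurons, was at 22.1 CPM in slow-growing PN 1203, at 0.605 CPM in fast-growing PN 1191, and between 2.40 and 13.3 CPM in the other libraries. *Mmp25* was likewise highest in PN 1203 (41.1 CPM) and lowest in PN 1191 (1.59 CPM). These are the libraries with the highest and the lowest sum of sensory neuron markers, 12272 and 24.6 CPM, and the part of neurons in these levels was not tested.

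Of the 4 other MMPs tested in fast-growing PNs, *Mmp19* and *Mmp28*, secreted MMPs of broad expression, rose, against 14.8% of all genes. *Mmp19* was at 16.0, 14.8, and 8.65 CPM in controls, 9.42, 34.9, 24.3, 3.57, and 15.3 CPM in slow-growing PNs, and 20.1 to 64.6 CPM (median 33.0) in fast-growing PNs, which lay above all controls. Its log2 fold change there was 1.41 (standard error 0.42, edgeR adjusted p = 0.029). That call was lost without DRG4 (edgeR adjusted p = 0.0723) or DRG5 (0.102) and with all 14 libraries in 1 fit (0.0812). The macrophage covariate (1.11, edgeR adjusted p = 0.0778) and limma voom (adjusted p = 0.0662) ended it too. Exons of *Gm47093* and *Tmem198b* lie on the opposite strand, and the larger overlap covers 22.3% of the exon length of *Mmp19*, as *1700020L24Rik* does 12.0% of that of *Mmp28*. *Mmp28* was at 3.94, 2.93, and 1.77 CPM in controls, 3.06 to 6.09 CPM in slow-growing PNs, and 4.31 to 8.76 CPM (median 5.94) in fast-growing PNs. The log2 fold change of 0.60 in slow-growing PNs did not pass (standard error 0.38, edgeR adjusted p = 0.306). *Mmp28* rose by 1.04 on the log2 scale in fast-growing PNs (standard error 0.31, edgeR adjusted p = 0.0303). That call was lost without DRG4, DRG5, PN 1053, or PN 1216 (edgeR adjusted p = 0.0872, 0.105, 0.0551, and 0.0532). The fibroblast covariate (0.99, edgeR adjusted p = 0.0583) and limma voom (adjusted p = 0.0503) ended it too. In all PNs the log2 fold change of *Mmp28* was 0.90 and did not pass (standard error 0.33, edgeR adjusted p = 0.0563). It passed there without DRG3, PN 1202, or PN 1203 (edgeR adjusted p from 0.0386 to 0.0427) and with DESeq2 (adjusted p = 0.0333). All 14 libraries in 1 fit (edgeR adjusted p = 0.0497), length and GC trends removed (0.0343), and the fibroblast (0.0477) or macrophage covariate (0.0459) also gave the call.

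Of the 7 ADAMTS proteases that cleave aggrecan and versican, *Adamts20*, known from versican cleavage in the migration of pigment cells, passed the test and the others did not, a share near the 12.9% and 14.8% of all genes that rose in all and in fast-growing PNs. It was at 42.8, 20.2, and 23.2 CPM in controls, 75.6, 85.4, 33.3, 29.5, and 92.3 CPM in slow-growing PNs, and 55.8 to 174 CPM (median 81.9) in fast-growing PNs, all 6 of which lay above all controls. Its log2 fold change was 1.67 in fast-growing PNs (standard error 0.39, edgeR adjusted p = 0.0104) and 1.47 in all PNs (standard error 0.46, edgeR adjusted p = 0.0289). Both were lost without DRG4 (edgeR adjusted p = 0.0507 and 0.139) and without DRG5 (0.0506 and 0.138), and the latter also with length and GC trends removed (0.0673). In slow-growing PNs the log2 fold change of *Adamts20* was 1.09 and did not pass (standard error 0.46, edgeR adjusted p = 0.156).

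*Adamts1*, *Adamts4*, and *Adamts5* passed in none of the comparisons. *Adamts1* was at 92.7, 41.8, and 84.1 CPM in controls, 45.3, 138, 37.2, 28.0, and 56.9 CPM in slow-growing PNs, and 63.7 to 185 CPM (median 98.1) in fast-growing PNs, and the groups overlapped (log2 fold change 0.22 in all PNs, standard error 0.48, edgeR adjusted p = 0.766). *Adamts4* stayed between 0.733 and 3.18 CPM in controls and slow-growing PNs and reached 2.23 to 7.48 CPM in fast-growing PNs (log2 0.96 over controls, standard error 0.47, edgeR adjusted p = 0.157). *Adamts5*, a neighbor of *Adamts1* on chromosome 16, was at 130.1, 59.5, and 63.0 CPM in controls, 204, 60.4, 104, 107, and 171 CPM in slow-growing PNs, and 37.2 to 109 CPM (median 64.3) in fast-growing PNs. Its log2 difference of -0.95 between fast-growing and slow-growing PNs did not pass (standard error 0.33, edgeR adjusted p = 0.133).

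Of the 3 procollagen N-proteinases, 1 rose in all and in fast-growing PNs, against 12.9% and 14.8% of all genes. These enzymes trim the amino end of fibrillar procollagens, and the member that rose was *Adamts2*. It was at 39.9, 24.3, and 23.6 CPM in controls, 48.0, 70.3, 42.6, 29.6, and 49.3 CPM in slow-growing PNs, and 59.8 to 155 CPM (median 102) in fast-growing PNs. The fast-growing PNs were above all controls, and PN 1203 alone among the PNs fell within their range. Its log2 fold change was 1.76 in fast-growing PNs (standard error 0.33, edgeR adjusted p = 0.0033), which held with each library left out, and 1.397 in all PNs (standard error 0.45, edgeR adjusted p = 0.0343), which was lost without DRG4 (edgeR adjusted p = 0.141), DRG5 (0.155), PN 1053 (0.0529), or PN 1071 (0.051) and with length and GC trends removed (0.0522). The value in all PNs was 0.12 with muscle and fat scores as covariates (edgeR adjusted p = 0.924). In slow-growing PNs it was 0.66 and did not pass (standard error 0.30, edgeR adjusted p = 0.177). *Adamts3* and *Adamts14*, with the same activity, did not pass in any comparison.

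Among the 9 other ADAMTS proteases, 4 rose in all PNs and 3 in fast-growing PNs, against 12.9% and 14.8% of all genes. *Adamts13*, the protease of von Willebrand factor, was at 11.2, 12.0, and 12.1 CPM in controls, 15.1 to 21.4 CPM in slow-growing PNs, and 15.6 to 27.2 CPM in fast-growing PNs, with every PN above every control (log2 0.76 in all PNs, standard error 0.20, edgeR adjusted p = 0.0131; 0.85 in fast-growing PNs, standard error 0.21, edgeR adjusted p = 0.012). *Adamts7*, which cleaves cartilage oligomeric matrix protein, was at 1.63, 3.48, and 1.88 CPM in controls, 2.66 to 7.90 CPM in slow-growing PNs, and 5.78 to 10.4 CPM in fast-growing PNs (log2 1.45 in all PNs, standard error 0.38, edgeR adjusted p = 0.0119; 1.58 in fast-growing PNs, standard error 0.32, edgeR adjusted p = 0.00518). For both genes the call in fast-growing PNs held with each library left out. In all PNs *Adamts13* lost it without DRG4 (edgeR adjusted p = 0.0534) or DRG5 (0.0559) and *Adamts7* without DRG3 (0.0523) or DRG5 (0.0754). In slow-growing PNs *Adamts13* (log2 0.53, standard error 0.18, edgeR adjusted p = 0.0867) and *Adamts7* (log2 1.15, standard error 0.46, edgeR adjusted p = 0.139) did not pass. *Adamts13* passed there with DESeq2 (adjusted p = 0.0277), and *Adamts7* with all 14 libraries in 1 fit (edgeR adjusted p = 0.0433).

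*Adamts19* was low, at 0.458 to 1.03 CPM in the 3 controls, and it was higher in every PN, at 1.37 to 6.46 CPM in slow-growing and 1.39 to 11.7 CPM in fast-growing PNs. On the log2 scale the difference was 2.41 in all PNs (standard error 0.68, edgeR adjusted p = 0.0178) and 2.60 in fast-growing PNs (standard error 0.71, edgeR adjusted p = 0.0209). Both calls were lost without DRG4 (edgeR adjusted p = 0.0908 and 0.0845) or DRG5 (0.0859 and 0.0738) and with limma voom (adjusted p = 0.0852 and 0.133). In slow-growing PNs the difference was 2.05 and did not pass (standard error 0.60, edgeR adjusted p = 0.0602). It passed there without PN 1203 (edgeR adjusted p = 0.0355), with the fibroblast covariate (0.0222), and with DESeq2 (adjusted p = 0.00884). *Adamts17*, known from fibrillin matrix, was at 4.54, 3.12, and 2.61 CPM in controls and 4.23 to 7.86 CPM in PNs, and it passed in all PNs only (log2 0.73, standard error 0.23, edgeR adjusted p = 0.0327). Its call did not hold without DRG4, DRG5, PN 1079, PN 1202, PN 1053, or PN 1071 (edgeR adjusted p from 0.0502 to 0.184), nor with limma voom (adjusted p = 0.0522).

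Of the 5 ADAMTS-like genes, *Adamtsl1* rose in fast-growing PNs, where 14.8% of all genes did. *Adamtsl2* to *Adamtsl5* did not pass in any comparison. *Adamtsl1* was at 42.7, 16.0, and 18.7 CPM in controls and spread widely in slow-growing PNs, at 49.5, 102, 37.0, 8.15, and 89.3 CPM. Fast-growing PNs lay close together, between 61.8 and 93.4 CPM (median 78.3), above all controls. They rose by 1.55 on the log2 scale (standard error 0.31, edgeR adjusted p = 0.00482), which held with each library left out and was lost with all 14 libraries in 1 fit (1.58, standard error 0.58, edgeR adjusted p = 0.056). In all PNs the log2 fold change was 1.397 and did not pass (standard error 0.55, edgeR adjusted p = 0.0746). It passed there without DRG3 (edgeR adjusted p = 0.0442) or PN 1203 (0.00611), with the fibroblast covariate (0.0213), and with DESeq2 (adjusted p = 0.0283).

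**Figure D4:**
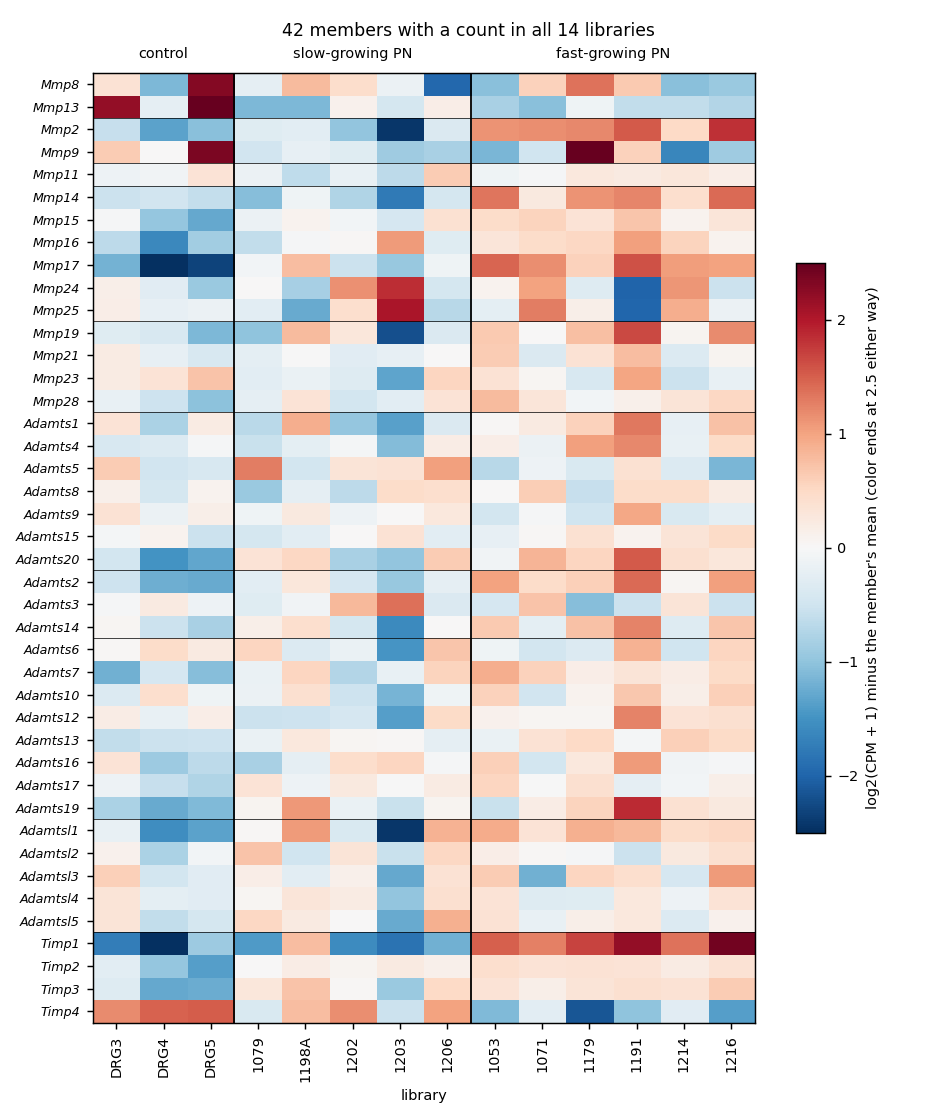
Log2(CPM + 1) minus the mean of the member over all libraries (color) for the 42 members counted in all 14 libraries (rows, ordered by role) in each library (columns, by group). *Timp1*, *Mmp2*, *Mmp14*, and *Mmp17* are red across the 6 fast-growing PNs, and slow-growing PN 1203 is blue in *Mmp2*, *Mmp19*, and *Adamtsl1* and red in *Mmp24* and *Mmp25*.

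The direct comparison of 6 fast-growing with 5 slow-growing PNs asks which members differ with tumor growth, and it uses no control. Of 40 members tested, 3 were higher in fast-growing PNs and 0 were lower (edgeR, 7.5%). Of all genes 1.27% were called, 0.802% higher and 0.466% lower. At an unadjusted p under 0.05 there were 10 members, a count that cannot be set against these adjusted shares. The 3 called members were *Mmp14*, *Mmp2*, and *Timp1*, that is the cell-surface activator, its secreted substrate protease, and an inhibitor. In each of them all 6 fast-growing PNs lay above all 5 slow-growing PNs. DESeq2 called 7 members, 5 higher and 2 lower (17.5% against 10.2% of all genes), and limma voom called 1 (2.5% against 0.22%).

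*Mmp14* was 3.45-fold higher in fast-growing PNs, at 84.5 ± 26.2 CPM (SD, n = 6) against 24.5 ± 10.2 CPM (SD, n = 5), a log2 difference of 1.78 (standard error 0.32, edgeR adjusted p = 0.0449). *Mmp2* was 3.93-fold higher, at 387 ± 116 against 98.3 ± 44.2 CPM, a log2 difference of 1.97 (standard error 0.38, edgeR adjusted p = 0.0449). *Timp1* was 6.21-fold higher, at 39.2 ± 13.7 against 6.25 ± 7.04 CPM, a log2 difference of 2.63 (standard error 0.56, edgeR adjusted p = 0.0485). The differences were large beside their standard errors, and the adjusted p of all 3 lay near the threshold. They all lost the call when any of PN 1079, 1202, 1206, 1053, 1179, 1191, or 1216 was left out, with 0 members called in each of these fits and 8 to 11 members at an unadjusted p under 0.05. Calls over all genes fell as well in these fits, to between 0.0128% and 0.0522%. The edgeR adjusted p of the 3 genes was then 0.0732 to 0.137, and their log2 differences were still 1.69 to 1.87 for *Mmp14*, 1.83 to 2.11 for *Mmp2*, and 2.45 to 2.69 for *Timp1*. *Timp1* also lost the call without PN 1214 (edgeR adjusted p = 0.0598), with DESeq2 size factors in edgeR (0.0518), and with no filter on low counts (0.0537), and *Mmp14* and *Mmp2* lost it with limma voom (adjusted p = 0.0512 for both). Without PN 1198A, the slow-growing PN with the highest *Timp1*, the difference in *Timp1* was 12.5-fold (log2 3.65), and 7 members passed (17.5% of those tested, where 7.65% of all genes passed), with *Adamts1*, *Adamts2*, and *Mmp17* higher and *Adamts5* lower besides these 3 (edgeR adjusted p = 0.031, 0.0199, 0.00736, and 0.0446).

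Marker levels of several cell types are given beside these genes, though edgeR called few of these markers between fast- and slow-growing PNs. The sum of 7 fibroblast markers was 1099 to 4857 CPM in slow-growing and 4579 to 9157 CPM in fast-growing PNs, and 1745 to 3281 CPM in controls, and in fast-growing PN 1216, which had the highest sum, *Mmp2* (567 CPM), *Mmp14* (111 CPM), and *Timp1* (60.0 CPM) were highest too. Slow-growing PN 1203, with the lowest sum, had the lowest *Mmp2* and *Mmp14* of all libraries. The sum is carried by *Dcn*, *Col3a1*, *Col1a1*, and *Lum*, whereas *Dpt* (67.3, 19.6, and 8.21 CPM on average in controls, slow-growing, and fast-growing PNs) and *Pi16* (26.4, 9.82, and 7.61 CPM) went the other way. Between fast- and slow-growing PNs edgeR called 0 of the 7 fibroblast markers and 0 of the 7 macrophage markers, with 5 and 6 higher and 0 lower at an unadjusted p under 0.05, and the median log2 difference was 0.997 and 1.75. The sum of the 7 macrophage markers was 147 to 510 CPM in controls, 49.2 to 398 CPM in slow-growing PNs, and 235 to 728 CPM in fast-growing PNs. Fat markers had a median log2 difference of -3.62, with 1 of 10 called lower and 9 lower at an unadjusted p under 0.05, 1 of 4 osteoclast markers tested was called higher (*Ctsk*, log2 2.09, edgeR adjusted p = 0.0449), and 5 of 8 Schwann cell markers were lower and 1 higher at an unadjusted p under 0.05 with 0 called. PN 1203 had the lowest sum of macrophage markers too, and PN 1198A had the highest among the slow-growing PNs.

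With the fibroblast marker score as a covariate, an alternative chosen after the data had been seen, the log2 differences were 1.34 for *Mmp14* (standard error 0.20, edgeR adjusted p = 0.0174), 1.58 for *Mmp2* (standard error 0.28, edgeR adjusted p = 0.0275), and 2.18 for *Timp1* (standard error 0.46, edgeR adjusted p = 0.043), so that all 3 passed and were smaller than without it. With the macrophage marker score in its place, likewise chosen after the data had been seen, they were 0.69 for *Mmp14* (standard error 0.29, edgeR adjusted p = 0.408), 1.09 for *Mmp2* (standard error 0.51, edgeR adjusted p = 0.426), and 1.28 for *Timp1* (standard error 0.36, edgeR adjusted p = 0.361). None of them passed there, and 0 of all genes did. With muscle and fat scores as covariates the differences were 2.01, 2.28, and 2.998, and none passed (edgeR adjusted p = 0.239, 0.292, and 0.237), with 0 of all genes called. At an unadjusted p under 0.05 there were 4 members with the macrophage score and 12 with the muscle and fat scores. The share of all genes at that p is not given, so these counts do not single out the family.

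**Figure D5:**
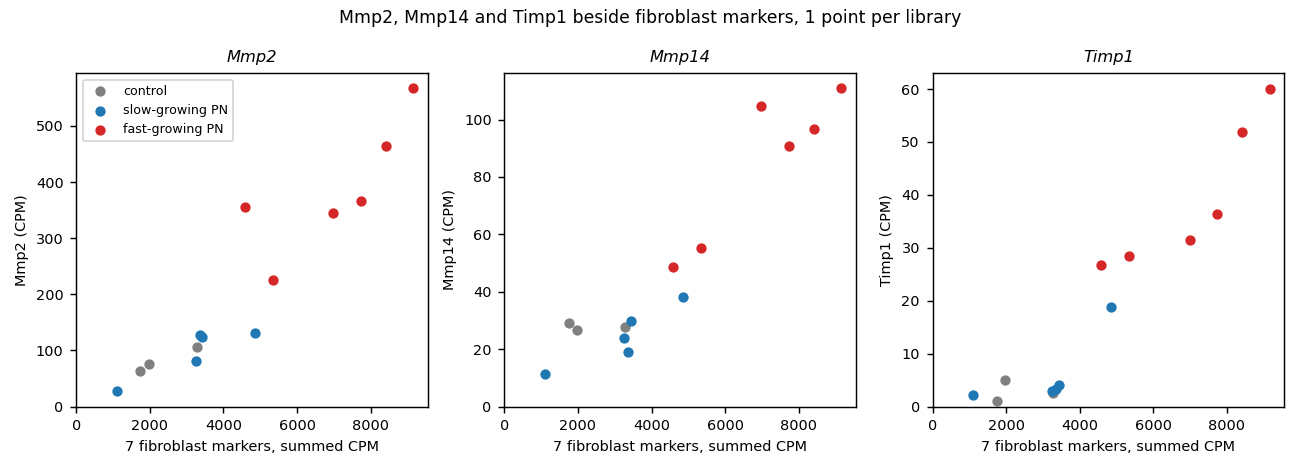
Level of *Mmp2*, *Mmp14*, and *Timp1* (y axes, CPM) against the summed level of 7 fibroblast markers (x axis, CPM), with 1 point per library colored by group. The fast-growing PNs lie to the upper right, from 4579 to 9157 CPM of fibroblast markers, and slow-growing PN 1198A, at 4857 CPM, has less *Mmp2* and *Mmp14* than the 2 fast-growing PNs nearest to it on the x axis.

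*Mmp17* and *Adamts2* came next in this comparison and missed the threshold, with log2 differences of 1.25 (standard error 0.30, edgeR adjusted p = 0.0572) and 1.099 (standard error 0.27, edgeR adjusted p = 0.0577). DESeq2 called both (adjusted p = 0.0033 and 0.0054), and *Adamts2* also passed with all 14 libraries in 1 fit (edgeR adjusted p = 0.0475). The other DESeq2 calls besides *Mmp14*, *Mmp2*, and *Timp1* were *Timp4* (adjusted p = 0.0187) and *Adamts5* (0.0493), both lower in fast-growing PNs. *Timp4* was lower in fast-growing PNs by a log2 difference of -1.91 that did not pass (standard error 0.61, edgeR adjusted p = 0.108). *Timp2* and *Timp3*, the abundant inhibitors, differed little between fast- and slow-growing PNs, by 0.21 (standard error 0.10, edgeR adjusted p = 0.275) and 0.15 (standard error 0.25, edgeR adjusted p = 0.739). *Mmp9* was 1.85 higher with a standard error of 0.96 (edgeR adjusted p = 0.304), and without PN 1179 the difference was -0.01.

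The other 27 members passed in none of the 4 comparisons as tested above. Of these, 21 were tested in at least 1 comparison and 6 (*Mmp1a*, *Mmp1b*, *Mmp7*, *Mmp10*, *Mmp20*, and *Mmp27*) in none. The log2 fold changes of the 21 tested ranged from -1.14 (*Mmp8*) to 0.85 (*Adamts16*) in all PNs, from -1.32 (*Mmp8*) to 1.06 (*Mmp24*) in the 18 tested in slow-growing PNs, and from -1.10 (*Mmp8*) to 0.99 (*Adamts16*) in fast-growing PNs. Between fast- and slow-growing PNs they ranged from -0.68 (*Adamts3*) to 0.83 (*Adamts12*) over 18 members. The lowest edgeR adjusted p among them was 0.0984, for *Adamts14* in fast-growing PNs. *Adamts9* passed in fast-growing PNs without PN 1191 (log2 fold change -0.55, edgeR adjusted p = 0.0317). *Mmp27* had 4, 7, and 7 counts in the controls and 0 to 3 counts in the PNs, too few for the filter on low counts, and without that filter it was lower in all PNs (log2 fold change -2.84, standard error 0.93, edgeR adjusted p = 0.0434). Among the other alternatives tried, none called any of the 27.

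Other genes of the same pathway were read from 3 lists, described here by counts alone. The share of all genes called was 26.3% in all, 11.3% in slow-growing, and 31.4% in fast-growing PNs against controls and 1.27% between fast- and slow-growing PNs. Of 13 tested activators and inhibitors of extracellular proteolysis, 5 were higher and 1 was lower in all PNs, 0 passed in slow-growing PNs by edgeR (1 at an unadjusted p under 0.05, lower), 6 rose and 0 fell in fast-growing PNs (2 lower at an unadjusted p under 0.05), and 2 were higher in fast- than in slow-growing PNs. The lowest adjusted p in all PNs was that of *Reck*, a membrane-anchored inhibitor of MMPs, which rose from 30.6 ± 10.7 CPM (SD, n = 3 controls) to 57.2 ± 23.0 CPM (SD, n = 5 slow-growing PNs) and 88.7 ± 11.8 CPM (SD, n = 6 fast-growing PNs), with a log2 fold change of 1.27 over all PNs (standard error 0.35, edgeR adjusted p = 0.0154). Of 9 ADAM proteases, the membrane-bound relatives that shed surface proteins, 1 was higher and 1 lower in all PNs, 1 was higher in slow-growing PNs, 2 rose and 1 fell in fast-growing PNs, and edgeR called 0 between fast- and slow-growing PNs (2 higher at an unadjusted p under 0.05). *Adam19* led them, at 77.0 ± 4.96, 143 ± 39.9, and 249 ± 56.3 CPM in the 3 groups (log2 1.36 in all PNs, standard error 0.33, edgeR adjusted p = 0.00788; 0.83 in slow-growing PNs, edgeR adjusted p = 0.0481).

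Of 17 tested matrix substrates and assembly genes, 3 were higher and 3 lower in all PNs, 1 lower in slow-growing PNs and none higher (1 at an unadjusted p under 0.05), 8 rose and 3 fell in fast-growing PNs, and 1 was higher in fast- than in slow-growing PNs, where 10 were higher and 2 lower at an unadjusted p under 0.05. The lowest adjusted p in all PNs was that of *Comp*, cartilage oligomeric matrix protein and the substrate of ADAMTS7, which fell from 15.8 ± 11.1 CPM in controls to 2.63 ± 1.56 in slow-growing and 2.99 ± 1.51 in fast-growing PNs (log2 fold change -2.49 over all PNs, standard error 0.46, edgeR adjusted p = 0.00143). The median log2 fold change in fast-growing PNs was 1.25 over the substrates, 0.80 over the activators and inhibitors, and 0.17 over the ADAM proteases, where that of all genes was 0.02.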

How the data were processed

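Total RNA of frozen tissue was amplified with the NuGEN Ovation RNA-Seq System v2 and sequenced. Per the submitters' processing notes, the tools were CASAVA 1.4, FastQC 0.11.0, TopHat2 2.0.9, featureCounts 1.5.2, and edgeR 3.16.5, with build mm10. The deposited table holds raw counts per gene as the authors made them, whereas strand setting and annotation are not given in the sources used here. The authors' log2 table was not used. Amplified reads without molecular identifiers are not independent molecules, so counting limits cover counting error only.

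Counts were tested with edgeR 4.0.16 (R 4.3.3; filterByExpr, TMM, quasi-likelihood test, Benjamini-Hochberg adjustment over all genes tested, threshold 0.05), each comparison with its own libraries only. The procedure was tested on simulated data, but the outcome is not given here and no call rests on it. CPM were divided by exon length from GENCODE, to which all 51 members matched. Every pair of libraries differed at 18345 or more genes. Members and lists were chosen with earlier results of these data known. Named members were those called in at least 1 comparison, *Timp1* to *Timp4*, *Mmp2*, *Mmp9*, *Mmp14*, *Adamts1*, *Adamts4*, *Adamts5*, and the 3 whose p was lowest between the growth groups, and each pathway list was represented by its lowest adjusted p in all PNs. Alternatives were DESeq2 size factors, no filter, DESeq2 1.42.0, limma voom 3.58.1, all 14 libraries in 1 fit, marker scores as covariates (mean log2(CPM + 1)), and each library left out. Fibroblast and macrophage covariates and removal of length and GC trends were chosen after seeing the data.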

Additional observations from a re-analysis of the deposited data

Results flagged for a closer look

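*Timp1* was at 18.8 CPM in slow-growing PN 1198A, far from the other slow-growing PNs, which lay between 2.20 and 4.05 CPM. The same library had the highest sum of fibroblast markers among slow-growing PNs (4857 CPM) and 30.2 CPM of muscle markers, the lowest of all libraries.

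*Timp2* was at 818 CPM in fast-growing PN 1214, below the other fast-growing PNs, which lay between 896 and 945 CPM. These were the 2 values that stood apart by Dixon's ratio of gap to range, taken on log2(CPM + 1), among 48 groups of libraries of the named members, where chance alone marks about 1 in 20 groups. On that scale *Mmp9* in PN 1179 did not pass the same limit.

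Fast- and slow-growing PNs differed in *Mmp14* by 1.78, in *Mmp2* by 1.97, and in *Timp1* by 2.63 on the log2 scale (edgeR adjusted p = 0.0449, 0.0449, and 0.0485), each higher in 6 of 6 fast-growing PNs than in every slow-growing PN.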

How the results depend on the processing

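Of 1832 values recomputed for 94 log2 fold changes, 1579 kept their direction and their side of the threshold, and 49 changed sign. The rest kept their direction, and of these 143 lost the call and 61 gained one. Calls lost along with a change of sign are counted among the 49 only, as for *Mmp14* and *Timp4* in fast-growing PNs with muscle and fat covariates. For the number of members called, each library left out in turn gave 4 to 17 in all PNs, 1 to 6 in slow-growing PNs, 13 to 19 in fast-growing PNs, and 0 to 7 between fast- and slow-growing PNs, while 12.5% to 29.4%, 3.74% to 15.3%, 20.4% to 32.1%, and 0.0128% to 7.65% of all genes were called. In slow-growing PNs DESeq2 called 9 members, limma voom 2, the fit without length and GC trends 2, the fibroblast covariate 7, and the macrophage covariate 1, where 22.5%, 11.7%, 7.01%, 13.4%, and 4.38% of all genes were called. Between fast- and slow-growing PNs DESeq2 called 7, limma voom 1, and the macrophage covariate 0 (4 at an unadjusted p under 0.05), where 10.2%, 0.22%, and 0% of all genes were called. With muscle and fat scores as covariates 0 members were called in each of the 4 comparisons, and in 3 of them 0 of all genes. The cause of these shifts was not tested.

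With muscle and fat covariates the sign changed in all PNs for *Adamts1* (-1.13), *Adamts4* (-0.52), *Mmp14* (-1.19), *Mmp19* (-0.0087), *Mmp2* (-0.60), *Timp1* (-0.79), and *Timp4* (1.03), in slow-growing PNs for *Adamts4* (0.95), *Mmp14* (0.072), *Mmp28* (-0.10), and *Timp4* (0.12), in fast-growing PNs for *Adamts17* (-0.83), *Adamts4* (-0.021), *Adamts5* (1.39), *Mmp14* (-0.15), and *Timp4* (2.61), and between fast- and slow-growing PNs for *Adamts17* (-0.064), none of which passed the threshold. Other called values moved by over 1.5 times with these covariates and lost the call, in all PNs *Adamts7* (0.59), *Adamts19* (1.74), *Mmp3* (-4.13), *Mmp13* (-4.14), and *Mmp16* (0.82), in slow-growing PNs *Mmp9* (-1.20) and *Mmp13* (-2.83), and in fast-growing PNs *Adamts19* (4.43), *Adamts20* (3.22), *Adamtsl1* (0.84), *Mmp13* (-6.93), *Mmp16* (2.69), *Mmp19* (0.78), and *Timp3* (0.52), besides those given with their genes. Without length and GC trends *Adamts5* was at -0.10 in all PNs. Between fast- and slow-growing PNs, *Adamts17* was at -0.0034 with DESeq2 size factors and at -0.0042 with the fibroblast covariate, which also put *Adamts19* at -0.12 and *Timp3* at -0.091. With the macrophage covariate *Adamts1* (-0.46), *Adamts4* (-0.31), *Adamts19* (-0.75), *Adamtsl1* (-0.52), *Mmp9* (-1.37), *Mmp19* (-0.63), and *Timp3* (-0.40) changed sign between fast- and slow-growing PNs, as did *Adamts4* (0.21), *Adamts5* (-0.078), and *Mmp14* (0.097) in slow-growing PNs.

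With each library left out, the sign also changed within the ranges of *Adamts1* (-0.054 to 0.44), *Adamts5* (-0.046 to 0.62), and *Mmp9* (-2.10 to 0.26) in all PNs, *Adamts4* (-0.34 to 0.11) and *Mmp19* (-0.058 to 0.65) in slow-growing PNs, *Adamts5* (-0.59 to 0.039) and *Mmp9* (-2.10 to 0.83) in fast-growing PNs, and *Adamts17* (-0.091 to 0.11), *Timp3* (-0.035 to 0.31), *Mmp9* (-0.0098 to 2.12), and *Adamts19* (-0.045 to 1.01) between fast- and slow-growing PNs.

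No paired analysis was possible because the labels give mouse identifiers and no replicate number that groups share. With 3 controls, single control libraries set the spread, and members below 0.167 to 0.313 CPM cannot be told from absent at this depth.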
